A study of Homo sapiens with 12 samples.

Results

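The 9 genes described here code for proteins that detect foreign or misplaced nucleic acid in the cytosol or endosome, or that carry the alarm onward: IFIH1, DDX58, DHX58, TLR3, ZBP1, TRIM25, MAVS, TBK1 and IKBKE. They were taken by name from the 38478 genes of the deposited expression table, and all 9 were found. The samples were cultures of OPM-1, an established line of human multiple myeloma, a cancer of plasma cells, and so model 1 tumour only. Cells were exposed for 48 h to DMSO as vehicle, to 0.1 μM lenalidomide (LEN), to 1 μM AI-10-104, or to both drugs at those doses (LEN+AI-10-104), with 3 biological replicates in each of the 4 groups and polyadenylated RNA sequenced. LEN redirects the ubiquitin ligase receptor cereblon to the transcription factors IKZF1 and IKZF3, which are then degraded, and AI-10-104 inhibits the RUNX transcription factors by blocking their binding to the partner CBFβ.

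Double-stranded RNA in the cytosol is bound by the helicases MDA5 (encoded by IFIH1) and RIG-I (encoded by DDX58), which pass the signal to MAVS, an adaptor on the outer mitochondrial membrane. MAVS recruits TBK1 and IKKε (encoded by IKBKE), kinases that phosphorylate IRF3 and IRF7, and these factors switch on the interferon genes. Several of the sensors are themselves induced by interferon in many cell types.

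Between 16352548 and 31386210 reads fell on genes in a sample, the group medians being 30219883 for DMSO, 28795905 for LEN, 23153105 for AI-10-104 and 19417027 for the combination, so the combination was sequenced least deeply. All 10 plasma cell and myeloma markers examined were expressed, at mean levels of 22.9 to 581 RPKM (reads per kilobase of gene length, scaled to 1000000 reads on genes in each sample). The 3 markers of earlier B cells had at most 3 reads in any sample, and PAX5 had none. Of 13 markers of T, myeloid, dendritic, stromal and red cells, 1 reached 1 RPKM, the haemoglobin gene HBB, at 18.2 to 22.9 RPKM. CD3D, CLEC4C, FLT3, COL1A2 and PDGFRB had no reads, and the summed level of the 13 spanned 20.6 to 20.7 RPKM for DMSO samples, 20.1 to 21.5 for LEN samples, 18.8 to 20.2 for AI-10-104 samples and 19.2 to 23.7 for combination samples. AI-10-104 replicate 2 stood apart from replicates 1 and 3 of its group, which were closer to each other (chi-square per degree of freedom 2.67, against 6.87 and 8.93). It was also the deepest of its group, at 29512562 reads beside 22784874 and 23153105. Combination replicate 3 stood apart in the same way, at smaller values (1.81 between replicates 1 and 2, against 4.75 and 5.29). So did DMSO replicate 1 (2.62 between replicates 2 and 3, against 4.15 and 6.06). LEN replicate 2 did too (2.27 between replicates 1 and 3, against 3.68 and 4.71). These values were not adjusted for the depth of the samples. Calls of the listed genes that turn on AI-10-104 replicate 2 are given with and without it. Since RNA was taken from whole cultures, more cells with a transcript and more transcript per cell cannot be told apart.

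Among the 9 genes, IFIH1 rose in every treatment relative to DMSO and was highest in the combination, and IKBKE rose in the combination. The adaptor MAVS, the kinase TBK1, the ubiquitin ligase TRIM25 and the sensor ZBP1 passed the test in no comparison. DDX58, DHX58 and TLR3 were too low to enter the test. Expression was tested with limma on log2(RPKM + 0.1) over the 11241 genes whose mean reached 0.5 RPKM, 6 of the 9 genes among them. A gene passed at a Benjamini-Hochberg adjusted p of at most 0.05 together with a log2 fold change of 0.32 or more in either direction.

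Averaged over all 12 samples and per gene length, the order of the levels was TLR3 at 0.042 RPKM, DHX58 at 0.115, DDX58 at 0.311, ZBP1 at 0.996, IFIH1 at 3.4, IKBKE at 4.64, MAVS at 8.55, TBK1 at 15.9 and TRIM25 at 38.0. The sensors thus stood at the lower end and the signal transducers above them. TLR3 overlapped in range with DHX58, and DHX58 with DDX58. Only IFIH1 and IKBKE had overlapping ranges among neighbours from DDX58 upwards, at 2.35 to 4.36 and 3.82 to 5.5 RPKM. These levels rest on the gene lengths deposited with the values, which for TBK1 was 3589 bases where the exons of GENCODE release 44 cover 14716, and for IFIH1 3600 where they cover 5225. MAVS had the same length in both, 11771 bases.

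IFIH1 lies on the minus strand of chromosome 2 (GRCh38, 162267074 to 162318684), and its helicase MDA5 binds long double-stranded RNA. IFIH1 and IKBKE are the members that rose, and DDX58 is the close relative of IFIH1 that stayed low. For these 3 genes the 250 bases before the RefSeq transcription start (GRCh38.p14) are shown 5′ to 3′ on the strand of the gene, with capitals for the matches described next.
IFIH1, minus strand, chr2:162318685-162318934: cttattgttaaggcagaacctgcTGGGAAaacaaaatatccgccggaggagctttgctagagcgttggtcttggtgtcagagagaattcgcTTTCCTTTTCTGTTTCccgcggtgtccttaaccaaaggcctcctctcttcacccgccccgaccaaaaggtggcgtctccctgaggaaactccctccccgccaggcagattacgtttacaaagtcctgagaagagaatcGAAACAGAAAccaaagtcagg
IKBKE, plus strand, chr1:206470226-206470475: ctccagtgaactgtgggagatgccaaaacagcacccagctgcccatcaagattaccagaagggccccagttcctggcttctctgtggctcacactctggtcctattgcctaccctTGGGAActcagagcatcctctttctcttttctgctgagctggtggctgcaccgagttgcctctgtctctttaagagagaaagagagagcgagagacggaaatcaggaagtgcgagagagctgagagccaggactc
DDX58, minus strand, chr9:32526197-32526446: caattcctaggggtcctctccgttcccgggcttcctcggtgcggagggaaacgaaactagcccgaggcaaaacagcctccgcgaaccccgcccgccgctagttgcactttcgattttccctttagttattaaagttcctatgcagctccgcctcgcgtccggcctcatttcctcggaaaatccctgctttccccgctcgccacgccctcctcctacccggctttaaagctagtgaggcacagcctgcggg

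The windows were searched on both strands for the core of the interferon-stimulated response element (GAAA, any 2 bases, GAAA), the gamma-activated core (TTCNNNGAA), RUNX cores (TGTGGT and TGCGGT) and an IKZF core (TGGGAA). The IFIH1 window held 3 matches to the interferon core. One lay 21 to 12 bases before the start, and the others, on the opposite strand, lay 153 to 144 and 159 to 150 bases before it and overlapped each other. It also held the IKZF core 227 to 222 bases before the start. The IKBKE window held the IKZF core 135 to 130 bases before the start, and the DDX58 window held none of the motifs. Windows were given for 7 of the 9 genes, not for DHX58 and ZBP1, and of these 7 only that of IFIH1 held the interferon core as searched. TBK1 had TGTGGT 98 to 93 bases before the start, TRIM25 had TGCGGT at 121 to 116, and TLR3 had the gamma-activated core at 50 to 42 and 178 to 170. Of 35116 RefSeq promoter windows of the same length, 3.02% held the interferon core, 6.57% the gamma-activated core, 11.0% TGTGGT, 5.84% TGCGGT and 20.8% the IKZF core. Such letter matches are a description of the sequence and do not show binding.

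In DMSO, IFIH1 was at 2.57, 2.60 and 2.35 RPKM in replicates 1, 2 and 3. In LEN it was at 3.49, 3.03 and 3.39 RPKM, and in AI-10-104 at 3.80, 3.58 and 3.40 RPKM. The combination gave 4.36, 3.99 and 4.31 RPKM. Every treated sample lay above every DMSO sample, and the combination samples lay above all others, while the LEN and AI-10-104 samples overlapped. These values rest on 180 to 380 reads per sample.

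LEN alone raised IFIH1 by 0.38 on the log2 scale (standard error 0.07, limma adjusted p = 0.024), the only one of the 6 tested members that passed, where 0.587% of all genes tested passed as higher and 0.0623% as lower. This call rested on few samples, since the adjusted p reached 0.12 without LEN replicate 1 and also exceeded the threshold without DMSO replicate 2 (0.062), DMSO replicate 3 (0.096) or LEN replicate 3 (0.1). It was 0.1 when DMSO and LEN samples alone were fitted. AI-10-104 alone raised it by 0.50 (standard error 0.07, limma adjusted p = 0.002), again the only member, against 0.685% of all genes as higher and 1.09% as lower, and that call held when any single sample was left out.

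In the combination, IFIH1 and IKBKE passed as higher than DMSO, 2 of 6 members against 2.3% of all genes tested, and 0 passed as lower, against 0.641%. IFIH1 stood 1.66-fold above DMSO on this scale (95% interval 1.49 to 1.84). Relative to LEN alone it was 0.35 higher (limma adjusted p = 0.017), where 0.872% of all genes passed as higher and 0.81% as lower, and it was the 1 member to do so. That difference fell below the fold change threshold without LEN replicate 2, at 0.29, and missed the adjusted p without combination replicate 1 (0.068) or replicate 3 (0.057). Relative to AI-10-104 alone it was 0.23 higher with a limma adjusted p of 0.048, under the fold change threshold, so 0 of 6 members were called there, against 3.16% of all genes as higher and 0.471% as lower. At an unadjusted p of at most 0.05 there were 4 of the 6, beside 3729 of all 11241 genes tested. Voom called 0 of the 6, beside 431 of all genes tested. With no fold change threshold, 3 members had an adjusted p of at most 0.05 in that comparison, IFIH1, MAVS and TBK1. The matching number over all genes is not given here, so that count is not read as particular to the members.

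The single drugs were also compared with each other. IFIH1 was lower in LEN than in AI-10-104 by a log2 value of -0.12 with an interval of -0.27 to 0.03 (limma adjusted p = 0.28). None of the 6 members was called in that comparison, against 2.73% of all genes as higher and 1.24% as lower. Voom called 0 of them, beside 497 of all 11241 genes tested. An unadjusted p of at most 0.05 was reached by 3 of them, beside 3288 of all 11241 genes tested. The changes after the single drugs add up to 0.89 on the log2 scale for IFIH1, and the combination gave 0.73. The difference between these, the interaction of the drugs, was -0.15 (interval -0.37 to 0.06, limma adjusted p = 0.48). For IKBKE the sum was 0.40 and the combination 0.44, with an interaction of 0.03 (interval -0.14 to 0.21). None of the 11241 genes tested passed the interaction test with limma (0.0%), although 1621 had an unadjusted p of at most 0.05. Limma's voom on the reads called 3, and 1 gene passed among the 12816 with a mean of at least 10 reads. That count rested on AI-10-104 replicate 2, without which 557 genes passed. Without it the interaction was -0.16 for IFIH1 (limma adjusted p = 0.42) and 0.01 for IKBKE (limma adjusted p = 0.96), so for these 2 genes a departure from additive changes was not detected with or without that sample.

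**Figure D1:**
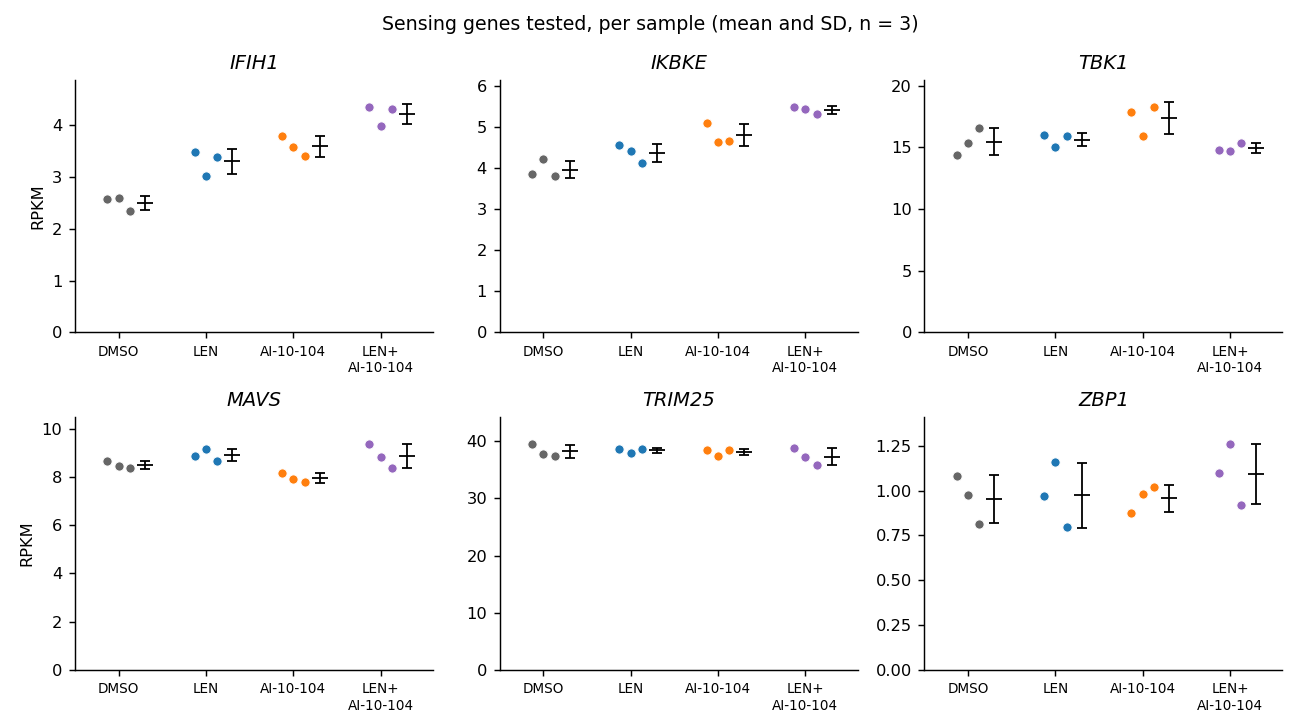
Level in RPKM (vertical axes, each starting at 0) of the 6 tested genes in each sample of the 4 groups (points), with the group mean and SD (n = 3). IFIH1 climbs from 2.51 in DMSO to 4.22 in the combination and IKBKE from 3.97 to 5.42, while the groups of TRIM25 and ZBP1 overlap.

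IKBKE lies on the plus strand of chromosome 1 (206470476 to 206496889) and codes for IKKε, an inducible relative of TBK1. It was at 3.87, 4.22 and 3.82 RPKM in DMSO and at 4.57, 4.42 and 4.13 in LEN, where the ranges overlapped. It was at 5.11, 4.63 and 4.67 in AI-10-104 and at 5.50, 5.44 and 5.32 in the combination. The combination samples were above all 9 others. The order of the means, DMSO, LEN, AI-10-104 and combination, was that of IFIH1.

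The combination raised IKBKE by 0.44 relative to DMSO (standard error 0.06, limma adjusted p = 0.00091), a call that held without any single sample, with values from 0.41 to 0.48. The differences of AI-10-104 from DMSO, 0.27 (limma adjusted p = 0.025), and of the combination from LEN, 0.30 (limma adjusted p = 0.013), were under the fold change threshold. LEN differed from DMSO by 0.14 (interval 0.01 to 0.26, limma adjusted p = 0.41) and from AI-10-104 by -0.13 (interval -0.26 to -0.00, limma adjusted p = 0.16). The combination differed from AI-10-104 by 0.17 (interval 0.05 to 0.30, limma adjusted p = 0.064). No pair of neighbours in the order was thus separated by the test. Exons of IKBKE share 156 bases with the antisense gene IKBKE-AS1, and whether counting used strand was not stated.

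TBK1, on chromosome 12 (64452090 to 64502114, plus strand), codes for the constitutive kinase of the pair. It was at 14.4, 15.4 and 16.6 RPKM in DMSO, 16.0, 15.0 and 15.9 in LEN, 17.9, 15.9 and 18.3 in AI-10-104, and 14.8, 14.7 and 15.4 in the combination. The DMSO samples overlapped with those of all 3 treatments. TBK1 was lower in the combination than in AI-10-104, with a log2 value of -0.21 (limma adjusted p = 0.039), which is under the fold change threshold. Its interaction of the drugs was -0.23 (interval -0.42 to -0.04, limma adjusted p = 0.3), and reached -0.29 with an adjusted p of 0.05 when AI-10-104 replicate 2 was left out, where TBK1 was the 1 member among the 557 genes that passed. Without that sample TBK1 in the combination stood at -0.27 relative to AI-10-104 (limma adjusted p = 0.0064), still under the fold change threshold.

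The levels of the kinases were also set beside each other. The level of TBK1 was 3.9 ± 0.383 times that of IKBKE in DMSO (SD, n = 3), 3.58 ± 0.236 times after LEN, 3.62 ± 0.263 times after AI-10-104 and 2.76 ± 0.113 times after both drugs. The combination samples, at 2.7 to 2.89, lay below all others, the lowest of which was at 3.4. This ratio was formed after the levels were seen and was not tested.

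MAVS lies on chromosome 20 (3846799 to 3876123, plus strand). It was at 8.66, 8.45 and 8.37 RPKM in DMSO, 8.87, 9.17 and 8.66 in LEN, 8.16, 7.91 and 7.77 in AI-10-104, and 9.36, 8.84 and 8.36 in the combination. The AI-10-104 samples were the lowest of the 12. Differences were small, with 0.15 for the combination over AI-10-104 (limma adjusted p = 0.044) and 0.16 for LEN over AI-10-104 (limma adjusted p = 0.037), both under the fold change threshold. Relative to DMSO the interval for the combination was -0.04 to 0.16, and for AI-10-104 it was -0.19 to 0.00.

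TRIM25, on chromosome 17 (56836387 to 56914080, minus strand), codes for a ubiquitin ligase known to modify RIG-I. It was the highest of the 9 genes and the steadiest, at 39.5, 37.8 and 37.4 RPKM in DMSO, 38.7, 37.9 and 38.6 in LEN, 38.4, 37.5 and 38.5 in AI-10-104, and 38.9, 37.2 and 35.9 in the combination. All groups overlapped. The interval of the combination's difference from DMSO was -0.11 to 0.05 on the log2 scale, so a change of the size called for IFIH1 lay outside it.

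ZBP1 lies on chromosome 20 (57603846 to 57620576, minus strand), and its protein binds nucleic acid in the left-handed Z form and can start necroptosis. It was at 1.08, 0.974 and 0.813 RPKM in DMSO, 0.968, 1.16 and 0.796 in LEN, 0.874, 0.982 and 1.02 in AI-10-104, and 1.10, 1.26 and 0.922 in the combination. All groups overlapped, and 80 to 163 reads per sample stood behind the values. The difference of the combination from DMSO was 0.18 with an interval of -0.16 to 0.51 (limma adjusted p = 0.53). At this depth a change of the size called for IFIH1 after LEN, 0.38, was inside that interval.

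**Figure D2:**
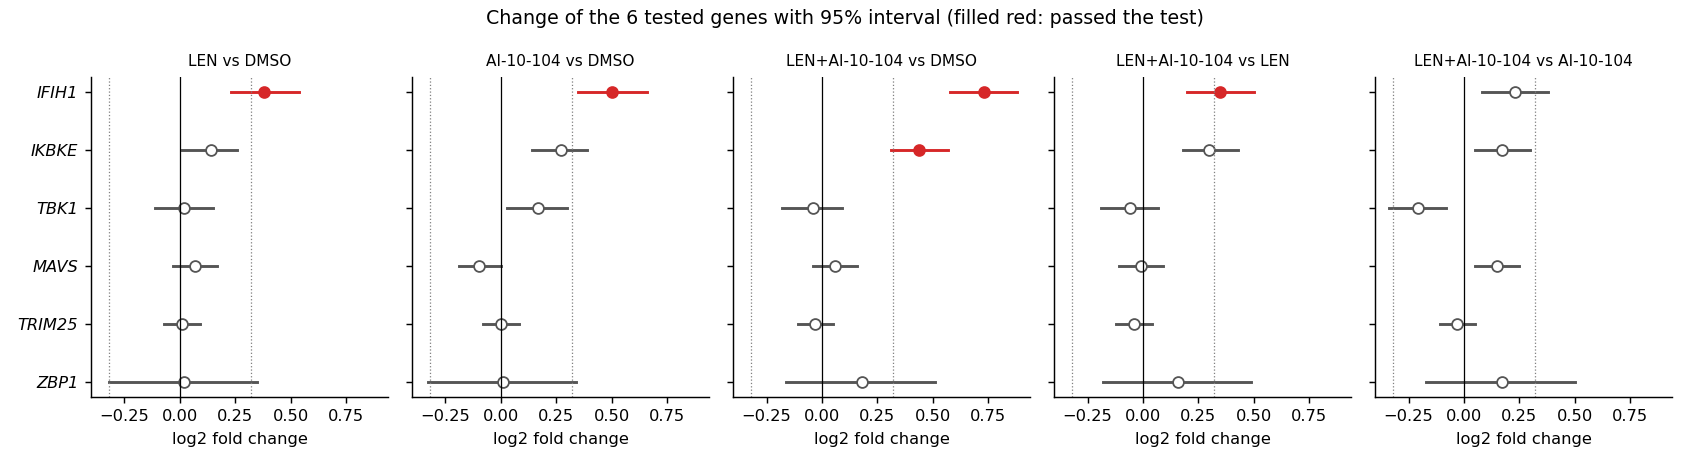
Log2 fold change (horizontal axes) of the 6 tested genes in 5 comparisons, with 95% intervals as lines, filled red points for values that passed the test and dotted lines at the fold change threshold of 0.32 in either direction. IFIH1 passes in 4 of the 5 panels and IKBKE in the combination relative to DMSO, while the intervals of ZBP1 are the widest.

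DDX58 lies on the minus strand of chromosome 9 (32455302 to 32526208), is named RIGI in GENCODE, and codes for the sensor of short RNA with 5′ triphosphates. It had 41, 41 and 25 reads in DMSO, 33, 43 and 47 in LEN, 40, 41 and 38 in AI-10-104, and 33, 21 and 29 in the combination. As RPM, the pooled reads scaled to 1000000 reads on genes, this came to 1.29 for DMSO (exact 95% Poisson interval 1.06 to 1.56), 1.56 for LEN (1.3 to 1.86), 1.58 for AI-10-104 (1.31 to 1.89) and 1.48 for both drugs (1.18 to 1.83). The intervals overlap. In a fit of all genes with a mean of at least 10 reads, the combination differed from DMSO by 0.14 (interval -0.11 to 0.40, limma adjusted p = 0.51), LEN by 0.23 (limma adjusted p = 0.56) and AI-10-104 by 0.24 (limma adjusted p = 0.28). GENCODE places another protein-coding gene, ENSG00000288684, on 4471 of its exon bases on the same strand, so its reads are uncertain. Such intervals count reads, not molecules, and so hold the counting error alone.

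The level of IFIH1 was 9.33 ± 0.197 times that of DDX58 in DMSO (SD, n = 3), 9.94 ± 0.226 times after LEN, 10.8 ± 1.28 times after AI-10-104 and 13.8 ± 1.4 times after both drugs. Combination samples ran from 12.2 to 14.8, and the highest AI-10-104 sample was also at 12.2. This ratio too was formed after the levels were seen and was not tested.

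DHX58 (chromosome 17, 42101404 to 42112714, minus strand) codes for LGP2, a helicase without signalling domains that modulates MDA5 and RIG-I. It had 5, 9 and 1 reads in DMSO, 8, 5 and 3 in LEN, 6, 5 and 9 in AI-10-104, and 15, 8 and 9 in the combination, which had the fewest reads in all. The pooled counts came to 0.181 RPM for DMSO (exact Poisson interval 0.101 to 0.298), 0.203 for LEN (0.116 to 0.33), 0.265 for AI-10-104 (0.162 to 0.409) and 0.57 for both drugs (0.39 to 0.804). Each combination sample lay above each of the 9 others. In a fit of every gene with a value above 0, the combination stood 0.96 above DMSO (standard error 0.28, limma adjusted p = 0.12), 0.78 above LEN (limma adjusted p = 0.26) and 0.62 above AI-10-104 (limma adjusted p = 0.27), so none passed.

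TLR3 (chromosome 4, 186068911 to 186088073, plus strand), the endosomal receptor for double-stranded RNA, had 4, 14 and 3 reads in DMSO, 3, 4 and 7 in LEN, 9, 4 and 2 in AI-10-104, and 5, 3 and 5 in the combination. The pooled counts came to 0.253, 0.178, 0.199 and 0.231 RPM. The groups overlapped, and no difference was detectable at this depth (limma adjusted p of 0.96 for LEN, 0.95 for AI-10-104 and 1 for the combination, each relative to DMSO).

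**Figure D3:**
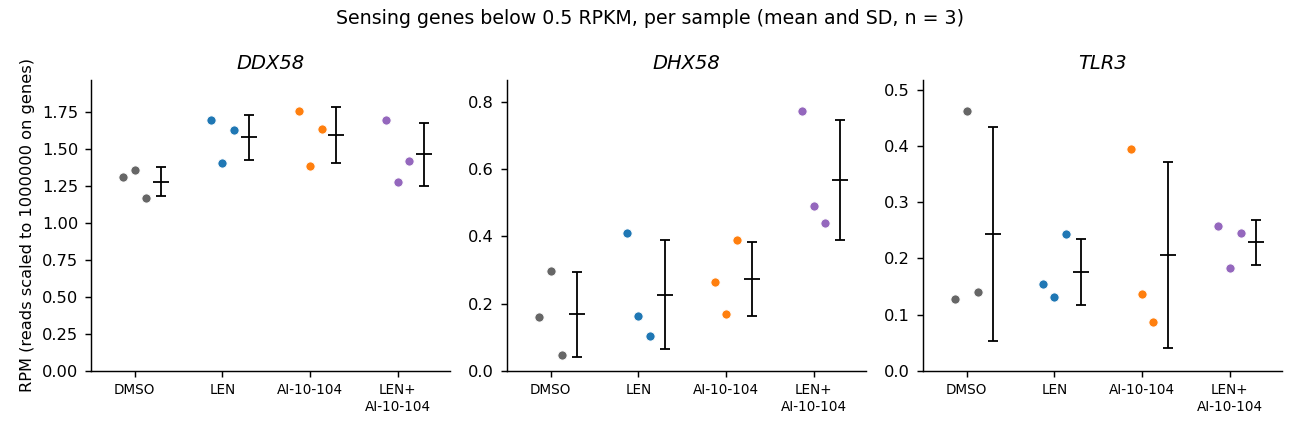
RPM, reads scaled to 1000000 reads on genes (vertical axes, each starting at 0) of the 3 genes below 0.5 RPKM in each sample (points), with the group mean and SD (n = 3). The 3 combination samples of DHX58 rest on 15, 8 and 9 reads and lie above all others, while the groups of TLR3 overlap.

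Across the 12 samples the levels of IFIH1 and IKBKE ran together, with Pearson's r of 0.93 on the log2 scale, while MAVS and TBK1 ran opposite with an r of -0.72. These are descriptions over samples that share the 4 treatments and their differences in depth. Of all genes tested, those most like IFIH1 were CD74, the invariant chain of MHC class II, with an r of 0.961, ADA, adenosine deaminase, with 0.951, and CACNA1A, a calcium channel subunit, with 0.951. Those most like IKBKE were LINC01287 (0.944), ABCD2 (0.939) and PNISR (0.933). For TBK1 they were OXCT1 (0.990), USP14 (0.967) and AP1S2 (0.964), and for MAVS they were MPRIP (0.972), GTF2F1 (0.954) and EHBP1L1 (0.943). TRIM25 was most like NOTCH2 (0.921), ARHGAP35 (0.913) and BAZ2A (0.898), and ZBP1 was most like DGCR14 (0.909), BRPF1 (0.892) and WBSCR22 (0.874).

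The rest of the pathway was read from a list of 134 further genes, of which 133 were found and 97 were expressed enough to be tested. In LEN relative to DMSO 2 of the 97 were higher and 0 lower, or 2.06% beside 0.587% of all genes as higher. Voom called 4 of the 97, beside 104 of all 11241 genes, adding OAS1 (0.73, adjusted p = 0.035) and TRAF5 (0.41, adjusted p = 0.029). In AI-10-104 relative to DMSO 0 were higher and 0 lower, beside 0.685% and 1.09% of all genes. There, 26 of the 97 had an unadjusted limma p of at most 0.05, beside 2457 of all 11241 genes tested. Voom called 0 of the 97 there, beside 282 of all genes tested. The median changes were 0.01 for LEN and 0.02 for AI-10-104, beside -0.002 and 0.008 over all genes. In the combination 2 were higher and 0 lower, with a median of 0.04 beside 0.020, and 2.06% is close to the 2.3% of all genes called as higher. Voom again called 4 of the 97, beside 384 of all 11241 genes, with the same additions of OAS1 and TRAF5. At an unadjusted limma p of at most 0.05 there were 29 of the 97 in the combination, beside 2659 of all 11241 genes tested. No interaction passed among the 97, and none over all genes. For 18 of the 97 the unadjusted limma p was at most 0.05, beside 1621 of all 11241, and voom called 0. Without AI-10-104 replicate 2, 6 interactions passed, beside 557 of 11252 genes. These were those of DHX15, TAB2, TRADD, TRIM56, TTC37 and XRCC5.

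The genes higher in both LEN and the combination were TMEM173, which encodes STING, the adaptor of cytosolic DNA sensing, and OPTN, optineurin, a ubiquitin-binding partner of TBK1. TMEM173 was at 5.52, 5.55 and 5.10 RPKM in DMSO, 8.40, 7.16 and 7.51 in LEN, 5.42, 5.62 and 4.57 in AI-10-104, and 9.67, 8.80 and 8.39 in the combination. Samples with LEN did not overlap with those without it. LEN raised it by 0.50 (limma adjusted p = 0.015) and the combination by 0.72 (limma adjusted p = 0.00039), and the combination was 0.77 above AI-10-104 (limma adjusted p = 0.00054). AI-10-104 alone gave -0.06. IFIH1 passed after AI-10-104 as well, and whether the genes differ in this was not tested.

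OPTN was at 8.03, 7.24 and 7.87 RPKM in DMSO, 10.3, 9.49 and 10.6 in LEN, 9.19, 8.35 and 9.22 in AI-10-104, and 10.9, 9.57 and 10.6 in the combination. All treated samples were above DMSO. LEN raised it by 0.39 (limma adjusted p = 0.014) and the combination by 0.42 (limma adjusted p = 0.0026), while AI-10-104 gave 0.21 (limma adjusted p = 0.093). The LEN calls of both genes were lost when single samples were left out, with adjusted p up to 0.076 for each, in the absence of LEN replicate 1 or LEN replicate 3 for both, of DMSO replicate 3 for TMEM173 and of DMSO replicate 2 for OPTN.

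Relative to the single drugs, TREX1, the exonuclease that removes cytosolic DNA, was 0.38 higher in the combination than in LEN (limma adjusted p = 0.0086). It was the 1 gene of the 97 to pass there, or 1.03% as higher, close to the 0.872% of all genes. None was lower, beside 0.81% of all genes. The TREX1 call was lost without LEN replicate 3 (0.30). Relative to AI-10-104, 5 of the 97 were higher in the combination and 1 lower, or 5.15% and 1.03% beside 3.16% and 0.471% of all genes. The higher genes were TMEM173, TRADD, a MAVS and death receptor adaptor (0.44, limma adjusted p = 0.0085), RNASET2, a lysosomal ribonuclease (0.38, limma adjusted p = 0.0063), the transcription factor JUN (0.37, limma adjusted p = 0.025) and TRIM56, a ubiquitin ligase acting on STING (0.35, limma adjusted p = 0.011). POLR3G, a subunit of RNA polymerase III, was the lower one at -0.39 (limma adjusted p = 0.01). In LEN relative to AI-10-104, TMEM173 and JUN were higher and POLR3G lower, or 2.06% and 1.03% of the 97 beside 2.73% and 1.24% of all genes. Without AI-10-104 replicate 2, CHUK, a kinase of the IKK complex, passed there too, at -0.33 (limma adjusted p = 0.031), against -0.28 (limma adjusted p = 0.042) with that sample. Voom added OAS1. Calls of JUN were lost without AI-10-104 replicate 1 or replicate 3, among others, with adjusted p up to 0.1, that of TRIM56 without AI-10-104 replicate 1 and that of POLR3G in the combination without AI-10-104 replicate 3. Both JUN calls and that of TRIM56 were also lost when the compared groups alone were fitted, and that of TRIM56 with quantile normalization.

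**Figure D4:**
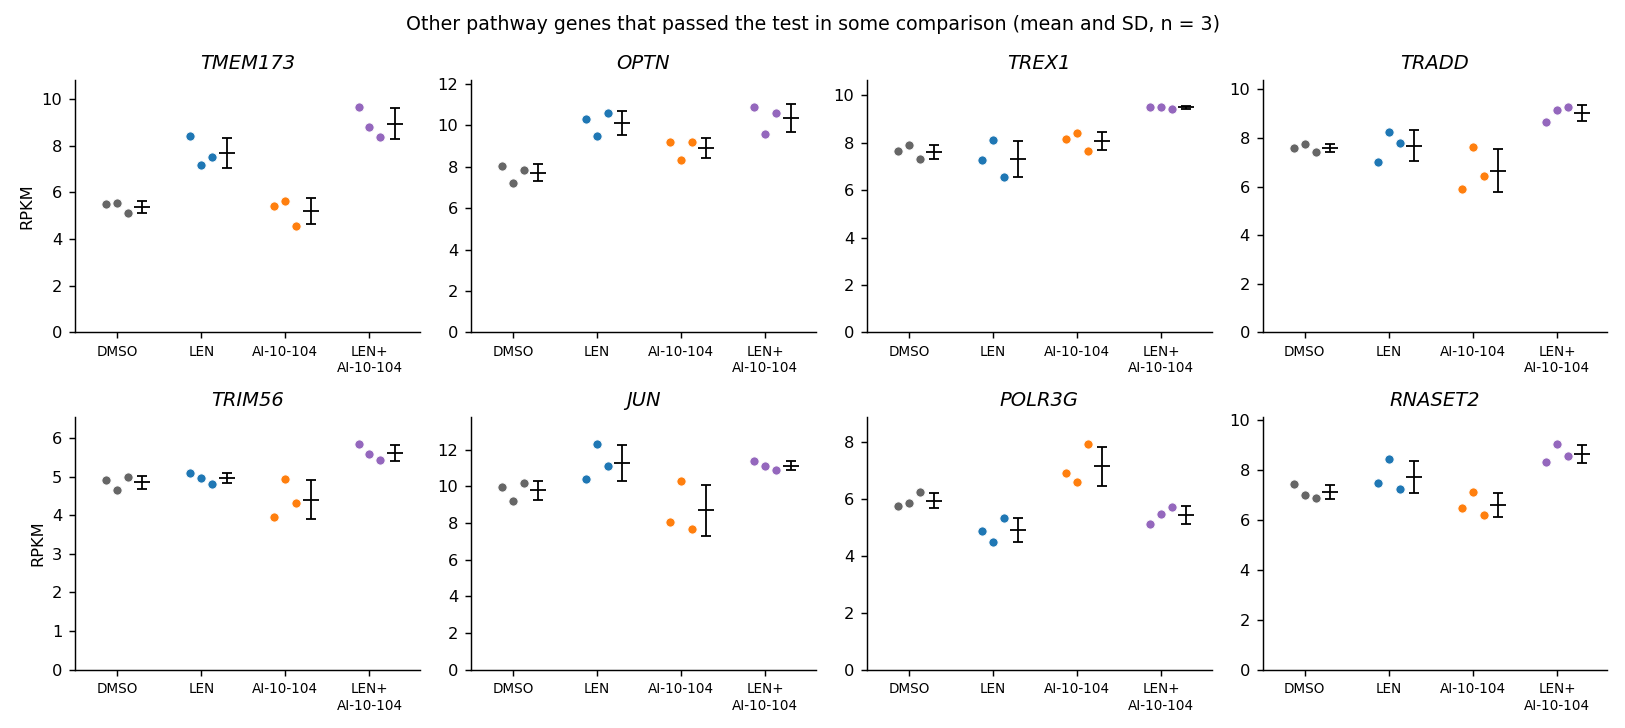
Level in RPKM (vertical axes, each starting at 0) in each sample (points) of the 8 further pathway genes that passed the test in some comparison, with the group mean and SD (n = 3). TMEM173 is at 7.16 RPKM or more in samples with LEN and at 5.62 or less without it, and POLR3G is highest in AI-10-104.

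By role, none of the 17 tested helpers and brakes of the RIG-I-like receptors passed in any comparison. DDX60 and LRRC25, listed in that role, fell below 0.5 RPKM and were not among the 17. Pooled reads of DDX60 came to 0.362 RPM for DMSO (exact Poisson interval 0.244 to 0.517) and 0.75 for LEN (0.571 to 0.967). They came to 0.424 for AI-10-104 (0.29 to 0.599) and 1.05 for both drugs (0.799 to 1.35), on 3 to 25 reads per sample. The LEN and combination intervals lay above that of DMSO, but hold the counting error alone. LRRC25 was listed with no reads. None of the 7 tested endosomal receptors and adaptors passed in any comparison, and none of the 5 tested partners of ZBP1 in cell death. Of the 20 tested genes for cytosolic DNA sensing, TMEM173, TRIM56 and POLR3G passed somewhere, of the 16 partners and brakes of MAVS TRADD, of the 13 genes of the TBK1 and IKK complexes OPTN, of the 11 enzymes for self nucleic acid TREX1 and RNASET2, and of the 5 downstream transcription factors JUN. In single comparisons of groups, 0.0623% to 3.16% of all genes passed in a given direction. The share passing in any comparison is not given here, so no role is called changed or unchanged by these counts. MB21D1, which encodes the DNA sensor cGAS, averaged 17.5 ± 1.26 RPKM with DMSO, 18.2 ± 0.565 with LEN, 17.7 ± 1.34 with AI-10-104 and 19.2 ± 0.721 with both drugs (SD, n = 3), and the difference of the combination from DMSO was 0.13 (limma adjusted p = 0.22). IRF3, the factor that TBK1 and IKKε phosphorylate, was at 20.9 ± 1.07, 21.3 ± 0.516, 20.0 ± 0.446 and 23.7 ± 1.76 RPKM in the same order, with 0.18 for the combination over DMSO (limma adjusted p = 0.06).

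The products of the pathway were close to absent from the table. Of 20 interferon genes, IFNB1 among them, 17 were listed at 0 reads in all 12 samples, where 0 of 293260702 reads allows up to 0.0102 RPM (a floor of 3 reads). IFNA5, IFNW1 and IFNL1 had at most 3 reads in any sample. IRF7, the interferon-induced partner of IRF3, had at most 2. SKIV2L, an RNA helicase of the exosome that most cells use, was also listed with at most 1 read, so a gene near 0 is given here as listed and not as absent from the cells.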

How the data were processed

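Per the labels, polyadenylated RNA of OPM-1 cells (12 samples, 3 per group) was sequenced from a directional kit. The submitters' processing notes name FastQC, STAR, Cuffnorm and DESeq2, without versions or order, and the build is GRCh38. The authors deposited RPKM values with gene lengths. Each value times its length was a whole multiple of 1 step per sample (100% within 0.02 reads), which gave back reads. Whether counting used strand is not given in the sources used here. The labels call the replicates biological and give no further origin.

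limma 3.58.1 (R 4.3.3) tested genes whose mean reached 0.5 RPKM, on log2(RPKM + 0.1), 1 mean per group over all 12 samples, with a variance trend and Benjamini-Hochberg adjustment. Fold changes on this scale understate changes of low genes. Interaction calls used the adjusted p alone. The design assumed a normalized unit, so the main test was not a count model. Voom was run on the reads computed back as an alternative. Python 3.11.15, pandas 2.3.3, scipy 1.17.1 and matplotlib 3.10.9 served for tables and figures.

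The members and pathway lists were chosen with earlier results of these data known, and the motifs after the files were read. Named genes are the members, listed pathway genes that passed in any comparison, IFNB1, MB21D1, TMEM173, IRF3 and IRF7, and the 3 genes most correlated with each tested member. IFNA5, IFNW1, IFNL1, SKIV2L, CHUK, TRAF5, DHX15, TAB2, TTC37, XRCC5, DDX60, LRRC25 and the effector genes of the closing section were named after their values were seen. MARCH5 was not matched.

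Replicates of a group differed beyond sampling noise (over genes with at least 10 reads in the pair, chi-square per degree of freedom 1.81 to 8.93). Alternatives were pseudocounts, filters, median-ratio and quantile scaling, a fit to the compared groups, a replicate block, no variance trend, voom, fold change thresholds, leaving out each sample and, chosen after seeing the data, thinning to the smallest library. On data simulated for the combination relative to DMSO (11231 genes), 81 of 99 genes changed by 0.6 and 97 of 100 changed by 1 were called, with 14 unchanged genes called. The simulation gave all genes the same dispersion and held no change smaller than 0.6. It therefore does not show how often changes of the size of most member calls are found. No sample was left out.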

Additional observations from a re-analysis of the deposited data

How the results depend on the processing

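The counts of members called moved with several settings. Shares of all genes without a fold change threshold or at 1.5-fold are not given here. The counts therefore show only how the member calls depend on the settings. LEN relative to DMSO fell from 1 member to 0 with a pseudocount of 1, with every gene above 0 RPKM tested, with the compared groups alone or at a 1.5-fold threshold, and ranged from 0 to 1 with single samples left out. AI-10-104 relative to DMSO had 2 without a fold change threshold and 0 at 1.5-fold. The combination relative to DMSO had 1 at 1.5-fold. Relative to LEN it had 0 with a pseudocount of 1, with quantile normalization, at 1.5-fold or with thinned reads, 2 without a fold change threshold, and 0 to 2 with samples left out. Relative to AI-10-104 it had 3 without a fold change threshold, and LEN relative to AI-10-104 had 1. The interaction had 0 to 1 with samples left out, TBK1 being gained without AI-10-104 replicate 2.

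Values of uncalled genes that changed sign were small. ZBP1 in LEN relative to DMSO was -0.00 with quantile normalization, voom or thinned reads and -0.10 to 0.14 with samples left out. In AI-10-104 relative to DMSO it was -0.02 with quantile normalization, -0.01 with voom and -0.09 to 0.09 with samples left out, and in LEN relative to AI-10-104 -0.03 with thinned reads and -0.11 to 0.13. TRIM25 ranged from -0.01 to 0.03 in LEN and -0.02 to 0.02 in AI-10-104 relative to DMSO, and from 0.00 to 0.02 between the drugs. MAVS in the combination relative to LEN ranged from -0.05 to 0.03. TBK1 in LEN relative to DMSO was -0.01 with thinned reads and -0.03 to 0.07 with samples left out, and in the combination -0.09 to 0.01. The IKBKE interaction ranged from -0.01 to 0.08. The cause was not tested.

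Over all genes, the share of calls that were higher moved from 78.2% to 60.5% for the combination relative to DMSO with quantile normalization, from 51.9% to 39.4% with median-ratio scaling and 34.9% with quantile normalization relative to LEN, and from 87.0% to 71.9% with quantile normalization relative to AI-10-104. Of the other pathway genes, JUN lost both calls, relative to AI-10-104, with every gene above 0 RPKM tested and with the compared groups alone. TRIM56 lost its call with a pseudocount of 1 (0.30), with quantile normalization (0.31) and with the compared groups alone (limma adjusted p = 0.053). Deviations from the group mean had a mean r of 0.052 between same-numbered samples of different groups (-0.0272 to 0.155). Between samples with different numbers it was -0.026 (-0.133 to 0.059). The first is slightly higher, and whether the numbers pair the samples was not settled. A replicate block changed 0 of 42 member calls, with IFIH1 in the combination at 0.73 (limma adjusted p = 0.00015). Leaving out a sample leaves 2 in its group, assumed to vary like the rest. Depth limits DDX58, DHX58 and TLR3 most.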

Other observations

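The list of effectors activated by double-stranded RNA includes 3 oligoadenylate synthetases with a mean below 0.5 RPKM, which were not part of the comparisons above. OAS2 averaged 0.325 ± 0.0144 RPKM with DMSO, 0.492 ± 0.0458 with LEN, 0.369 ± 0.0636 with AI-10-104 and 0.709 ± 0.0142 with both drugs (SD, n = 3), on 46 to 102 reads per sample. The combination samples, at 0.694 to 0.722 RPKM, lay above all others. OASL averaged 0.118 ± 0.0507 RPKM with DMSO, 0.284 ± 0.056 with LEN, 0.179 ± 0.0134 with AI-10-104 and 0.372 ± 0.0785 with both drugs, on 3 to 22 reads per sample. Combination and LEN samples of OASL overlapped and lay above the rest. OAS3 had at most 1 read in a sample.

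In the fit of genes with a mean of at least 10 reads, the combination relative to DMSO passed for OAS2 at 0.93 (standard error 0.11, limma adjusted p = 0.00033) and for OASL at 1.13 (standard error 0.18, limma adjusted p = 0.0027). With every gene above 0 RPKM tested, the adjusted p values were 0.0059 and 0.018. Relative to AI-10-104 the combination gave 0.80 for OAS2 (limma adjusted p = 0.002) and 0.74 for OASL (limma adjusted p = 0.021), the latter at an adjusted p of 0.075 with every gene above 0 tested. LEN relative to DMSO did not pass, at 0.47 for OAS2 (limma adjusted p = 0.077) and 0.83 for OASL (limma adjusted p = 0.052). These genes were singled out after their values were seen.

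EIF2AK2 and OAS1, which were tested, passed in no comparison, although OAS1 passed with limma's voom on the reads in LEN and in the combination relative to DMSO and in LEN relative to AI-10-104. EIF2AK2, the kinase PKR that halts translation, averaged 5.51 ± 0.0821 RPKM with DMSO, 6.58 ± 0.441 with LEN, 5.58 ± 0.263 with AI-10-104 and 6.56 ± 0.254 with both drugs (SD, n = 3). LEN differed from DMSO by 0.25 (limma adjusted p = 0.06) and the combination by 0.25 (limma adjusted p = 0.019), under the fold change threshold. OAS1 differed by 0.67 in LEN (limma adjusted p = 0.12) and by 0.59 in the combination (limma adjusted p = 0.061), on 28 to 99 reads per sample.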
